A study of Homo sapiens with 4 samples.

Results

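The rows described here are those of small nucleolar RNAs and of the genes that carry them. A row of the deposited gene table was taken when its symbol was that of a small nucleolar RNA (SNORA or SNORD with a number), a small Cajal body RNA (SCARNA with a number) or a small nucleolar RNA host gene (SNHG with a number), or was GAS5, ZFAS1, EPB41L4A-AS1 or TAF1D, and when both untreated libraries gave at least 1 FPKM. Of 33117 rows, 165 met this rule, out of 462 with such a symbol at any level. They comprise 94 box C/D rows, 50 box H/ACA rows, 3 small Cajal body RNA rows and 18 host genes. The members were thus chosen by their symbol and their untreated FPKM, and those untreated levels are given below as a description.

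The cells were HT29, a human colorectal carcinoma line, and their RNA was sequenced in bulk, where fewer cells of a type and less RNA per cell cannot be told apart. The untreated group holds 2 libraries with no treatment named in the labels, and the fluorouracil group 2 libraries of cells given 100 µM 5FU for 2 h. The labels do not tell whether replicates are separate cultures. Any p-value therefore measures the spread among these 4 libraries only, and that spread may be technical. The marker genes of colon epithelium were present, with EPCAM at 345 to 407 FPKM in the 4 libraries, although the transcription factors CDX1 and CDX2 stayed below 1 FPKM. Of 8 markers of blood, fibroblast and endothelial cells, CD3E, COL1A2 and DCN were listed at 0 in all 4 libraries, and CD14 was the highest at 1.36 to 8.68 FPKM.

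Small nucleolar RNAs are short noncoding RNAs of the nucleolus that guide the chemical modification of ribosomal RNA. Box C/D RNAs direct ribose methylation by the methyltransferase fibrillarin, and box H/ACA RNAs direct the conversion of uridine to pseudouridine by dyskerin. Most human ones are not transcribed on their own: they are cut out of introns of a host gene, many of which encode ribosomal proteins or are spliced noncoding RNAs with no known product other than their guests. Small Cajal body RNAs are related guides that act on spliceosomal RNAs. Fluorouracil is a pyrimidine analogue that blocks thymidylate synthase and is also built into RNA.

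Each of the 147 small RNA rows lay inside a longer gene of GENCODE 29 (GRCh38), 136 in an intron and 11 overlapping an exon. Their 74 hosts comprised 56 protein-coding and 18 noncoding genes, and 23 hosts encode ribosomal proteins. Ribosomal protein genes carried 46 of the small RNA rows and other or noncoding hosts the rest. The box C/D rows had a median length of 75 nt and the box H/ACA rows of 134 nt. The strandedness of the libraries is not given in the sources used here. Fragments of the host transcript over the same bases, or of near-identical copies elsewhere, cannot be told apart from the mature small RNA. For the 11 rows that overlap an exon these can include the spliced host transcript.

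The sequences shown next are those on which the results turn, as GENCODE 29 transcripts, each written from the 5′ end. The first set holds the guests of SNHG12, the host row with the smallest p-value. SNORA16A lies at chr1:28580920-28581054, SNORA44 at chr1:28580381-28580512, SNORA61 at chr1:28579764-28579893 and SNORD99 at chr1:28578749-28578822, all on the minus strand of GRCh38. Capitals mark box C (TGATGA, searched in the first 20 bases), box D (CTGA, searched in the last 15 bases) or the ACA element that ends a box H/ACA RNA (ACA with 2 to 5 bases after it), each on the strand of the RNA alone.
SNORA16A: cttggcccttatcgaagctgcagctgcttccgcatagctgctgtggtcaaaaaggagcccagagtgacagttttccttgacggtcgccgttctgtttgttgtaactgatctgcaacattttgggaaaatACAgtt
SNORA44: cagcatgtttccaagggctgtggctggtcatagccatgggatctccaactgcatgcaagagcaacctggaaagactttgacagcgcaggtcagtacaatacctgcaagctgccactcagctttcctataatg
SNORA61: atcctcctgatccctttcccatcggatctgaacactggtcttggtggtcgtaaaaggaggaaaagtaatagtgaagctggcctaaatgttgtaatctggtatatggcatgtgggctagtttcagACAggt
SNORD99: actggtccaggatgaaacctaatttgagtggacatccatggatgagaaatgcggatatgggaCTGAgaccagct
The second set holds rows that were lower in fluorouracil replicate 1 by the test across all rows. SNORD110 lies at chr20:2654212-2654286 (plus strand), SNORD20 at chr2:231456444-231456523 (minus), SNORD24 at chr9:133349396-133349470 (plus), SNORD48 at chr6:31835263-31835326 (plus) and SNORA70F at chr2:164687643-164687777 (minus); SNORD47, a guest of GAS5, also belongs to them.
SNORD110: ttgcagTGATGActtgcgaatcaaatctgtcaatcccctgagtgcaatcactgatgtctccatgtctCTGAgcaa
SNORD20: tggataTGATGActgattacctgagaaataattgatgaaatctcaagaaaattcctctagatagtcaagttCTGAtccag
SNORD24: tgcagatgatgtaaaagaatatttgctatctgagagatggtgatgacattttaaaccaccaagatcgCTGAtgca
SNORD48: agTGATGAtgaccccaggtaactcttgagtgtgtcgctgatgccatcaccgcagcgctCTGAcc
SNORA70F: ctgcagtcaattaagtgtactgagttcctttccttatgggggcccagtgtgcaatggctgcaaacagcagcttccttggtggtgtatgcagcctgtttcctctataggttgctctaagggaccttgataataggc
SNORD45C, a guest of RABGGTB at chr1:75787072-75787150 (plus strand), is shown because it was among the rows highest in the treated library relative to the untreated ones.
SNORD45C: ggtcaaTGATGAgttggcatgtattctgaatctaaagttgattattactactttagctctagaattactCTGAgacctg
The last set holds the long rows that kept values in fluorouracil replicate 2, SNORD17 at chr20:17962710-17962946 (minus strand) and SNORA73A at chr1:28507366-28507571 (plus strand).
SNORD17: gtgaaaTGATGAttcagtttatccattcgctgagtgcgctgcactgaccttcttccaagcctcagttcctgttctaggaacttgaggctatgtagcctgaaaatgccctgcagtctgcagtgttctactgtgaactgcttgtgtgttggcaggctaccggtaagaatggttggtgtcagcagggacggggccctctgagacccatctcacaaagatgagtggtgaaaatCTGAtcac
SNORA73A: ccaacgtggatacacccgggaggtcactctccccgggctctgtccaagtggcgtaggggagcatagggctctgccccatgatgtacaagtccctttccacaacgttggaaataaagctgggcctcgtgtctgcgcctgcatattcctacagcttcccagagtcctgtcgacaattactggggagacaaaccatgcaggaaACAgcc
Both box C and box D as spelled here were found in 64.1% of the 78 box C/D members with a transcript and in 66.5% of all 278 GENCODE 29 transcripts named SNORD. The ACA element was found in 74.0% of the 50 box H/ACA members and in 85.0% of all 147 transcripts named SNORA. Sequences without capitals, such as SNORA44 and SNORA70F, do not hold these exact letters in these windows.

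The small RNA rows had values in 3 libraries and almost none in the fourth. In fluorouracil replicate 2, 144 of the 147 were listed at 0, against none in either untreated library and 7 in fluorouracil replicate 1. The zeros followed length. Of 84 members under 100 nt, 0 were above 0 in fluorouracil replicate 2 and 79 in replicate 1. Of the 58 members from 100 nt to under 150 nt, 0 were above 0 in replicate 2 and 56 in replicate 1. The longest member at 0 had 177 nt and the shortest above 0 had 207 nt. Of the other small RNA rows in the table with at least 1 FPKM untreated, such as microRNA and small nuclear RNA rows, 105 of 107 were also at 0. The summed FPKM of the small RNA members was 2002 and 1812 in the untreated libraries, 1763 in fluorouracil replicate 1 and 41.3 in fluorouracil replicate 2. The small RNAs are therefore compared in 3 libraries, which leaves 1 treated library and no spread between treated ones, and the host genes in 4.

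**Figure D1:**
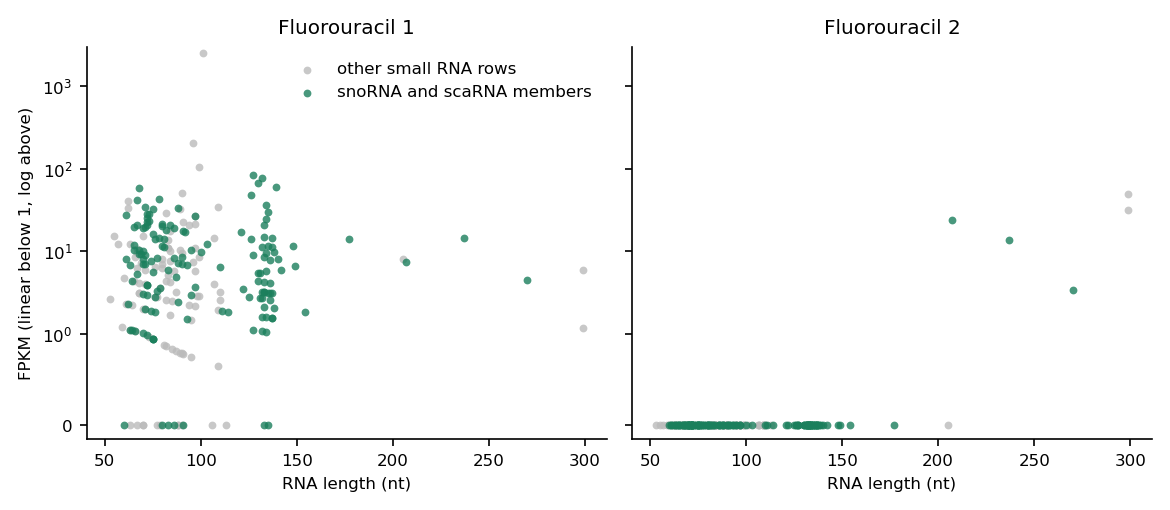
FPKM of small RNA rows that reached 1 FPKM in each untreated library against annotated RNA length in nucleotides, in each fluorouracil library (vertical axis linear below 1 and logarithmic above). In fluorouracil replicate 2 the rows up to 205 nt sit at 0, and the 3 members above 0 have 207, 237 and 270 nt.

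The 3 members above 0 in that library were SNORA73A, SNORD17 and SCARNA12. SNORA73A, known as U17 and needed for the processing of pre-ribosomal RNA rather than for modification, had 12.1 and 9.21 FPKM untreated and 7.51 and 24.2 FPKM in fluorouracil replicates 1 and 2. Its treated values lay on opposite sides of the untreated ones. SNORD17 had 12.7 and 8.62 FPKM in untreated and 14.3 and 13.7 FPKM in treated libraries, so both treated values were above both untreated ones. SCARNA12 had 3.72 and 4.29 FPKM in untreated and 4.45 and 3.36 FPKM in treated libraries, with overlapping groups.

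The counts behind the small RNA values could be read from the FPKM. In a row of a single short exon, 1 fragment is worth a fixed amount of FPKM that depends on the length and the library total, and 97.1% to 97.3% of the members' values above 0 were whole multiples of it within 0.05 fragment. The totals this gave were 13.9 M and 14.7 M fragments (M, mega) for the untreated libraries and 14.2 M for fluorouracil replicate 1. For fluorouracil replicate 2 no total could be derived. Whole fragments were recovered in all 3 libraries for 142 members. A box C/D row held a median of 10.5, 11.5 and 9.0 fragments in untreated replicates 1 and 2 and fluorouracil replicate 1, and a box H/ACA row 14, 11 and 10. Many rows are thinly counted: 71 of the 142 averaged under 10 fragments untreated. SNORD34, for example, rested on 1 fragment in each library. Intervals given for fragment ratios are exact at 95% and cover counting error only, since reads without molecular identifiers are not independent molecules, and they compare libraries, not conditions.

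The most abundant small RNAs came from a few hosts. SNORA18 had 99.5, 82.5 and 76.5 FPKM in untreated replicates 1 and 2 and fluorouracil replicate 1, and SNORA40 had 98.3, 92.2 and 85.1. SNORA8 had 70.2, 53.9 and 60.5 FPKM. These 3 box H/ACA RNAs all lie in TAF1D, which encodes a subunit of the selectivity factor of RNA polymerase I. SNORA61 and SNORA70 completed the 5 highest box H/ACA rows. Among box C/D rows SNORD80, in GAS5, was highest with 63.7, 42.2 and 34.8 FPKM, followed by SNORD31 (53.8, 40.04 and 58.2), SNORD35B (35.9, 49.5 and 33.7), SNORD96A and SNORD102. At the other end, the members nearest the 1 FPKM threshold were SNORA39, SNORA16B and SNORA68, whose lower untreated values were 1.001, 1.02 and 1.02 FPKM. The rows nearest below it were SNORD1A, SNORD36B and SNORD59A, with lower untreated values of 0.970, 0.959 and 0.957 FPKM, each of them 1 fragment.

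As a class, box C/D RNAs were slightly lower in the treated library and box H/ACA RNAs lay within the untreated range. Box C/D members summed to 97.8 and 94.2 FPM untreated (FPM, fragments per mega-fragment of library total; 95% Poisson intervals 92.7 to 103 and 89.3 to 99.3) and to 88.6 in fluorouracil replicate 1 (83.7 to 93.6), over 90 rows. The ratio of treated to pooled untreated was 0.923 (0.863 to 0.987), while the ratio between the untreated libraries was 0.963 (0.893 to 1.04). Against untreated replicate 2 alone the treated ratio was 0.940 (0.870 to 1.02), an interval that holds 1. Box H/ACA members summed to 95.2 and 80.2 FPM untreated and 83.8 treated, over 49 rows. Their treated ratio was 0.958 (0.893 to 1.03), and the untreated libraries differed more from each other, with a ratio of 0.843 (0.778 to 0.912). The same sums without the 1 FPKM threshold gave treated ratios of 0.932 (0.872 to 0.995) over 271 box C/D rows and 0.972 (0.908 to 1.04) over 106 box H/ACA rows. Other small RNA rows had a ratio of 1.09 (1.05 to 1.13) over 98 rows and 1.08 (1.04 to 1.13) between the untreated libraries. That sum is mostly 1 row, MIR1282, with 2117 and 2299 FPKM untreated and 2555 treated. The largest count of a single row was 3654 fragments, where all 98 rows summed to 4922 in the treated library. Over the 107 such rows the median difference in log2(FPKM + 0.1), treated minus the untreated mean, was -0.11. The summed ratio thus does not describe these rows as a class.

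Row by row, more members lay below than above the untreated pair in fluorouracil replicate 1. Of 94 box C/D rows, 49 were below both untreated values, 23 above both and 22 between them. Of 50 box H/ACA rows, 25 were below, 14 above and 11 between. Over all 12267 rows with a mean of at least 1 FPKM in the 3 libraries, 36.8% were below and 38.8% above. The members had to reach 1 FPKM in both untreated libraries but not in the treated one, so nothing is read from this difference. The median difference in log2(FPKM + 0.1), treated minus the untreated mean, was -0.33 for box C/D rows, -0.12 for box H/ACA rows and 0.01 for all rows. Taking instead all rows of a class that reached 1 FPKM in the treated library, the medians were -0.09 and 0.21. With the rows listed at 0 set to a floor of 3 fragments, the medians of the members were -0.28 and -0.07. The median size of the difference was 0.49 between the untreated libraries and 0.51 from their mean to the treated one for box C/D rows, and 0.46 and 0.57 for box H/ACA rows. The 103 rows in protein-coding hosts and the 44 in noncoding hosts had the same median to 2 decimals, -0.29.

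**Figure D2:**
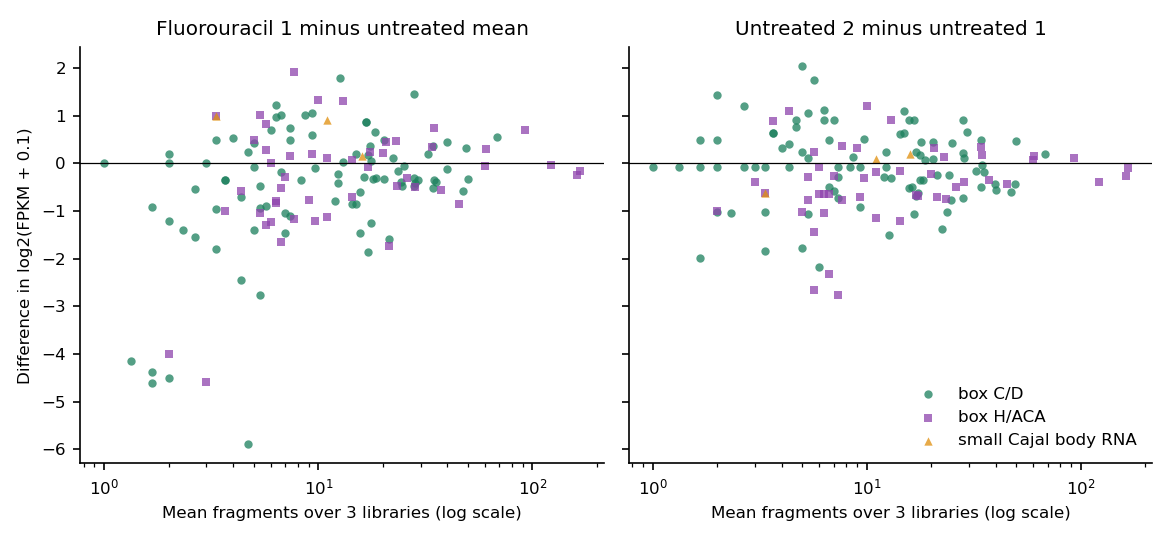
Difference in log2(FPKM + 0.1) of 142 small RNA members against their mean number of fragments over 3 libraries (log scale), for fluorouracil replicate 1 minus the untreated mean on the left and for untreated replicate 2 minus replicate 1 on the right. Points scatter around 0 in both panels and more widely at few fragments, and the 7 rows listed at 0 in the treated library form the lowest points on the left.

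A few rows passed the test across all rows. With limma across the 12267 rows, 6 of the 147 small RNA members had an adjusted p below 0.05, all lower, where 0.717% of all rows were called in either direction and 0.375% lower. Since the rule asked for 1 FPKM in the untreated libraries alone, a row that fell to 0 could be a member and one that rose from 0 could not, so nothing is read from that direction or from the share. This fit assumes that the lone treated library varies like the untreated pair. It also draws the variance of each row toward a trend over all rows. The median size of the difference between the untreated libraries was 0.14 for those rows and 0.49 for the small RNA members. Its SEs and p-values can thus be too small for rows of few fragments. The count of 6 was 2 with a pseudocount of 0.01, 0 with no filter on low values and 24 with the other small RNA rows left out. SNORD110, a guest of NOP56, had 19.1 and 22.7 FPKM untreated and 5.65 FPKM treated, from 20, 25 and 6 fragments. Its log2 change was -1.86, and its fragment ratio 0.270 (0.0940 to 0.634). SNORD47, a guest of GAS5, had 27.0, 23.0 and 8.26 FPKM from 29, 26 and 9 fragments, a ratio of 0.331 (0.144 to 0.675; limma adjusted p = 0.0392). SNORD24, a guest of the ribosomal protein gene RPL7A, had 6.70, 7.26 and 0.942 FPKM. It is as long as SNORD110, 75 nt, so these lower values rest on fewer fragments in each library. In each of these the treated value lay well below an untreated pair of similar level.

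Like SNORD24, the other called rows rested on few fragments. SNORD20, in an intron of the nucleolin gene NCL, was listed at 0 in the treated library, with 5 and 9 fragments untreated, so it was at least 2.31-fold lower against a floor of 3 fragments (ratio 0, upper bound 0.610; limma adjusted p = 0.0361). SNORD48, known as RNU48 and used as a reference in small RNA assays, had 5, 7 and 1 fragments (5.61, 7.44 and 1.10 FPKM; limma adjusted p = 0.0410). Its ratio of 0.169 had an interval of 0.00394 to 1.14, which holds 1. SNORA70F had 5 and 4 fragments untreated and 0 treated, with an upper bound of 1.02 for the ratio (limma adjusted p = 0.0448). Counting error alone thus spans no difference for SNORD48 and SNORA70F, and leaves it out for the other 4 called rows.

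The remaining rows listed at 0 in the treated library were counted too thinly for a fold. SNORA16B, SNORD121A, SNORD33, SNORD75 and SNORD91B had between 4 and 6 fragments over both untreated libraries, and their ratios had upper bounds from 1.72 to 3.06. The 5 largest falls in log2 among box C/D rows were all such zeros: SNORD20, SNORD75, SNORD121A, SNORD91B and SNORD33. Among box H/ACA rows SNORA70F and SNORA16B were followed by SNORA3, SNORA22 and SNORA51. SNORA3, in the ribosomal protein gene RPL27A, had 18.8 and 11.5 FPKM untreated and 4.35 FPKM treated, from 34, 22 and 8 fragments, a ratio of 0.289 (0.119 to 0.609; limma adjusted p = 0.101). SNORA22 had 15, 3 and 2 fragments and SNORA51 had 9, 6 and 3.

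No row was called higher. The largest differences upward were those of SNORA65, SNORD99, SNORD45C, SNORA29 and SNORA44. SNORA65, in RPL12, had 2.64 and 1.501 FPKM untreated and 7.79 FPKM treated, from 5, 3 and 15 fragments, a ratio of 3.79 (1.51 to 10.3; limma adjusted p = 0.120). SNORD45C had 20.2 and 12.2 FPKM untreated and 43.5 FPKM treated, from 22, 14 and 48 fragments, a ratio of 2.70 (1.71 to 4.27; limma adjusted p = 0.137). SNORD51, SNORD42A and SNORD83A were the next box C/D rows, with log2 differences of 1.23, 1.21 and 1.06, and SNORA60 and SNORA39 the next box H/ACA rows, with 1.02 and 0.99. All 3 small Cajal body RNA members were above both untreated values in fluorouracil replicate 1, as were 38.8% of all rows. SCARNA15 had 4.52 and 4.82 FPKM untreated and 8.90 treated, and SCARNA22 had 1.72, 1.09 and 2.83. Their summed ratio was 1.45 (0.930 to 2.24), from 25, 28 and 38 fragments, which holds 1.

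Fragment intervals that left out 1 were few among the members, in the treated as in the untreated comparison. Of 142 rows, 8 had a treated ratio with an interval above 1 and 10 below, against 2 above and 8 below for the ratio of the untreated libraries. Among 98 other small RNA rows chosen by the same 1 FPKM threshold, 5.1% had a treated interval above 1 and 6.12% below, close to the shares of the members, 5.63% and 7.04%. Besides the rows already named, SNORD22, SNORA61 and SNORA16A were among those above, and SNORD36C, SNORD50B, SNORA32 and SNORD80 among those below. For SNORD80 and SNORA22 the untreated libraries differed from each other as well, with ratios of 0.662 (0.440 to 0.989) and 0.190 (0.0352 to 0.671), and for SNORD80 the treated ratio was 0.661 (0.438 to 0.977).

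Guests of one host share a transcript, so the fragments of a host's guests were summed. The guests of SNHG12 (chromosome 1, 28578538 to 28583132, minus strand) were all higher in the treated library and so was their host. This locus was singled out after its values were seen. SNORA61 had 39.7 and 42.9 FPKM untreated and 67.4 treated, from 72, 82 and 124 fragments. SNORA16A had 13.9, 15.7 and 24.8 FPKM, SNORA44 had 3.26, 6.19 and 11.2 FPKM, and SNORD99 had 9.87, 3.403 and 20.3 FPKM. SNORA44 overlaps an exon of SNHG12, so its row may count fragments of the spliced host. Each of these 4 had a fragment interval above 1, although none was called by limma (adjusted p from 0.0889 to 0.260). Together they summed to 115 and 129 fragments untreated and 215 treated, a ratio of 1.78 (1.48 to 2.15), against 1.06 (0.821 to 1.38) between the untreated libraries. The SNHG12 row itself had 19.4 and 24.4 FPKM untreated and 49.0 and 48.7 FPKM in the treated libraries, 21.9 ± 3.53 against 48.9 ± 0.242 (SD, n = 2). The log2 change of 1.16 (SE 0.29) did not pass the test over 12462 rows by limma (adjusted p = 0.671, unadjusted 0.0140). In 3 libraries the log2 change was 1.17 (SE 0.17, limma adjusted p = 0.0742).

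**Figure D3:**
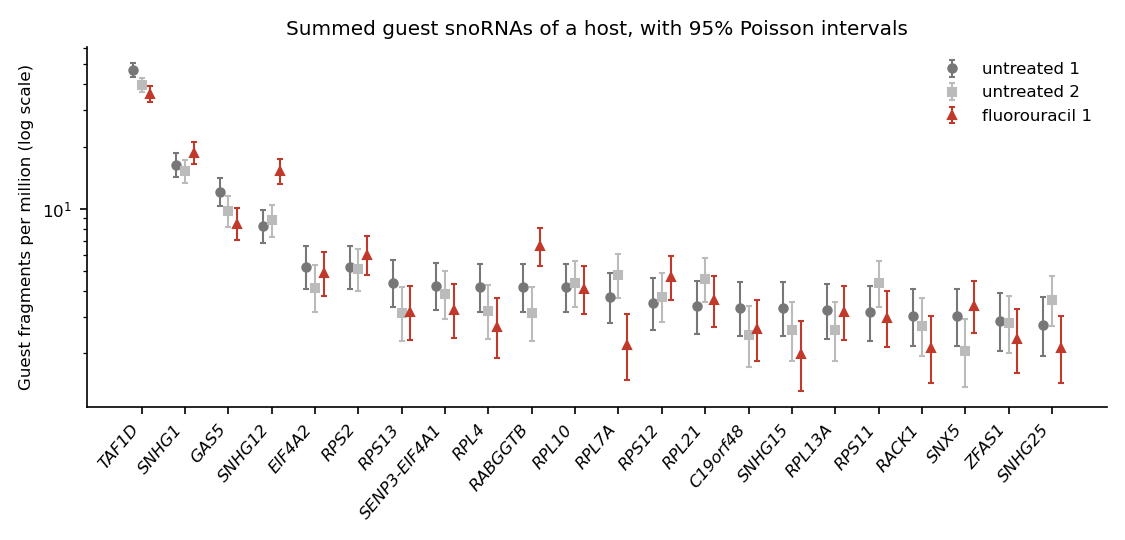
Summed FPM of the guest small RNAs of each host with at least 100 guest fragments (log scale), in untreated replicates 1 and 2 and fluorouracil replicate 1, with 95% Poisson intervals for counting error. The SNHG12 guests stand at 8.25 and 8.78 untreated and 15.2 treated, and the RPL7A guests at 3.73, 4.76 and 2.19.

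At other hosts the guests differed more than the host row. The 3 guests of RABGGTB, which encodes a subunit of the enzyme that prenylates Rab proteins, are SNORD45A, SNORD45B and SNORD45C. They had 58 and 46 fragments untreated and 93 treated, a ratio of 1.81 (1.35 to 2.42), all 3 above both untreated values, while RABGGTB had 55.3 and 48.9 FPKM untreated and 58.8 and 33.9 FPKM in fluorouracil replicates 1 and 2. The guests of NOP56, a core protein of box C/D particles that hosts SNORA51, SNORD110 and SNORD57, had 35 and 43 fragments untreated and 12 treated, a ratio of 0.311 (0.154 to 0.575). NOP56 itself had 115 and 133 FPKM in untreated and 129 and 131 FPKM in treated libraries. RPL7A guests SNORD24, SNORD36A and SNORD36C had 52, 70 and 31 fragments, a ratio of 0.514 (0.335 to 0.767), with the host at 1302, 1224 and 1266 FPKM in the same libraries. The RPL27A guests SNORA3 and SNORA45 had a ratio of 0.329 (0.168 to 0.594), and the SNHG5 guests SNORD50A and SNORD50B 0.344 (0.140 to 0.735), with SNHG5 between 29.02 and 30.5 FPKM in all 4 libraries. SNORA3 overlaps an exon of RPL27A, so its row may count fragments of the spliced host. In these 4 loci with lower guests every member guest was below both its untreated FPKM values. These loci, too, were chosen after their values were seen.

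Guests of the long noncoding hosts GAS5 and SNHG1 did not all move one way. GAS5 (chromosome 1, 173863900 to 173868882, minus strand) is a spliced noncoding RNA known to accumulate on growth arrest. Of its 10 guests, 1 was above both untreated values in the treated library, 4 below and 5 between. SNORD74 had 17.9, 8.51 and 22.6 FPKM, while SNORD47 and SNORD80 were lower as given above and SNORD44, used like SNORD48 as a reference small RNA, had 24.7, 33.5 and 27.8 FPKM. The 7 guests for which whole fragments were recovered summed to 168, 143 and 120, a ratio of 0.780 (0.627 to 0.966), beside 0.807 (0.641 to 1.02) between the untreated libraries. SNORD77, SNORD78 and SNORD81 are not in this sum. SNHG1 (chromosome 11, 62851988 to 62855914, minus strand) had 8 guests, of which 4 were above, 3 below and 1 between. SNORD22 had 30.8, 35.1 and 48.2 FPKM and SNORD27 had 10.96, 6.62 and 3.92 FPKM. The guests of SNHG1 summed to 227, 223 and 263 fragments, a ratio of 1.18 (1.01 to 1.38).

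TAF1D and ZFAS1 complete the host and guest sets. Of the 8 guests of TAF1D (chromosome 11, 93729948 to 93784391, minus strand), 7 were below both untreated values in the treated library, among them SNORA32 with 35.6, 26.4 and 16.9 FPKM. Their sum went from 46.8 and 39.7 to 36.0 FPM, a ratio of 0.834 (0.751 to 0.926), but the untreated libraries differed from each other as much (0.850, 0.758 to 0.951). ZFAS1, a noncoding RNA on chromosome 20 from 49278178 to 49295738 (plus strand), holds SNORD12, SNORD12B and SNORD12C. They had 40, 41 and 33 fragments, a ratio of 0.824 (0.532 to 1.25), which holds 1. SNORD12 had 9.57, 18.2 and 8.63 FPKM, with the treated value below both untreated ones and nearer to the first than these were to each other. SNORD12 overlaps an exon of ZFAS1, so its row may count fragments of the spliced host.

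Across loci, the correlation between the change of the guests and that of the host row was low. Over 39 hosts of at least 1 FPKM untreated whose guests held at least 30 fragments, Pearson's r between the log2 changes was 0.30 and Spearman's rho 0.19, and r was 0.13 without SNHG12. The points share 3 libraries, and this correlation is across loci, which are not replicates. In 25 of the 39 loci the host row and the guests changed in the same direction. Without SNHG12 the host rows spanned only -0.57 to 0.33, and the guest sums carry counting error. A low r therefore cannot tell whether guests and host change together. The host at 0.33 was RPL17, with 1.91 and 2.11 FPKM untreated, 2.55 in fluorouracil replicate 1 and 1325 in replicate 2. The cause of that gap was not tested, and the RPL17 row may not measure this host in the 3 libraries. The host rows spanned log2 changes of -0.57 to 1.17 and the guests -1.68 to 0.85. The guest interval lay above 1 in 4 loci and below 1 in 6, against 0 and 2 for the ratio of the untreated libraries.

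**Figure D4:**
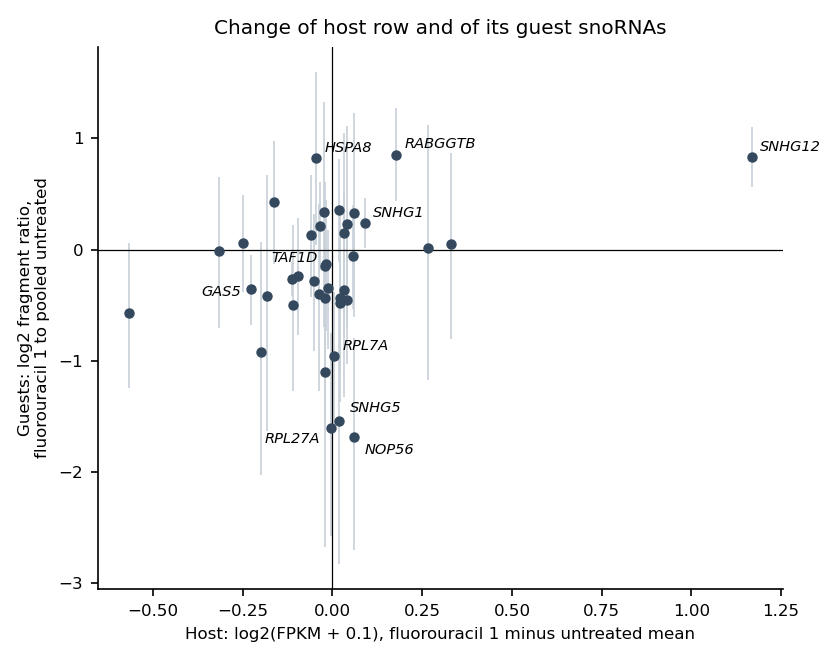
Log2 fragment ratio of the summed guests of each host (vertical axis, with 95% exact intervals for counting error) against the change of the host row in log2(FPKM + 0.1), both for fluorouracil replicate 1 and untreated libraries, over 39 hosts. Names mark the 10 hosts whose guest interval leaves out 1, among them SNHG12, which lies farthest to the right at a host change of 1.17.

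The 18 host rows had values in all 4 libraries, and the treated libraries differed from each other. With limma across 12462 rows, 0 host rows had an adjusted p below 0.05, as did 0% of all rows, and 1 host, SNHG12, had an unadjusted p below 0.05. The 2 treated libraries were both higher than the untreated pair in 9 hosts and both lower in 3, and 6 overlapped, where the shares over all tested rows were 24.4% above and 19.3% below. The median log2 change of the hosts was 0.10 in fluorouracil replicate 1 and 0.59 in replicate 2, beside 0.01 and 0.19 for all rows. Scaling the libraries to a common median of long rows, whose medians deviated by -0.06 in both untreated libraries, -0.02 in replicate 1 and 0.16 in replicate 2, left host medians of 0.09 and 0.37. With 2 against 2 libraries the smallest two-sided p of an exact permutation test is 0.333.

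The hosts with higher values in both treated libraries were EPB41L4A-AS1, SNHG3, SNHG5, SNHG7, SNHG8, SNHG10, SNHG11, SNHG12 and SNHG19. SNHG3, whose span holds SNORA73A and overlaps RCC1, had 31.2 and 32.7 FPKM untreated and 40.6 and 44.2 treated (32.0 ± 1.06 and 42.4 ± 2.53, SD, n = 2; log2 change 0.41, SE 0.27, limma adjusted p = 0.671). EPB41L4A-AS1 had 16.7 and 17.3 FPKM untreated and 19.1 and 22.1 treated. SNHG10 had 1.90 and 2.67 against 3.06 and 3.87 FPKM, and SNHG5 differed by less than 2 FPKM over all 4. In SNHG7, SNHG8, SNHG11 and SNHG19 fluorouracil replicate 2 was far above replicate 1. SNHG7 had 11.4 and 9.12 FPKM untreated and 15.2 and 77.1 treated. SNHG19 had 5.68 and 7.88 untreated and 11.4 and 49.5 treated, SNHG8 52.9 and 51.2 against 56.5 and 176, and SNHG11 7.53 and 6.07 against 7.67 and 14.4 FPKM.

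The hosts with lower values in both treated libraries were GAS5, SNHG15 and TAF1D. GAS5, the most abundant host, had 245 and 205 FPKM untreated and 191 and 201 treated (225 ± 28.0 and 196 ± 7.03; log2 change -0.19, SE 0.30, limma adjusted p = 0.764). SNHG15 had 62.3 and 53.6 untreated and 39.0 and 47.3 treated, and its single guest member SNORA9 had 24.8, 19.4 and 14.9 FPKM in the 3 libraries. SNORA9 overlaps an exon of SNHG15, so its row may count fragments of the spliced host. TAF1D had 73.1 and 83.3 untreated and 72.2 and 33.7 treated, so its lower mean rests mainly on replicate 2.

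The remaining 6 hosts had treated values on both sides of the untreated ones or within them. SNHG16 had 25.4 and 27.4 FPKM untreated, 17.4 in fluorouracil replicate 1 and 28.1 in replicate 2. SNHG17 had 15.4 and 14.1 against 11.8 and 24.3 FPKM, ZFAS1 150 and 116 against 127 and 268, and SNHG6 164 and 152 against 161 and 393. SNHG1 had 169 and 138 against 163 and 109 FPKM, and SNHG4 11.4 and 13.0 against 13.2 and 6.17. Without fluorouracil replicate 1, 12 of the 18 hosts were called by limma, among 8422 of 12390 rows, and without fluorouracil replicate 2, 0 were.

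**Figure D5:**
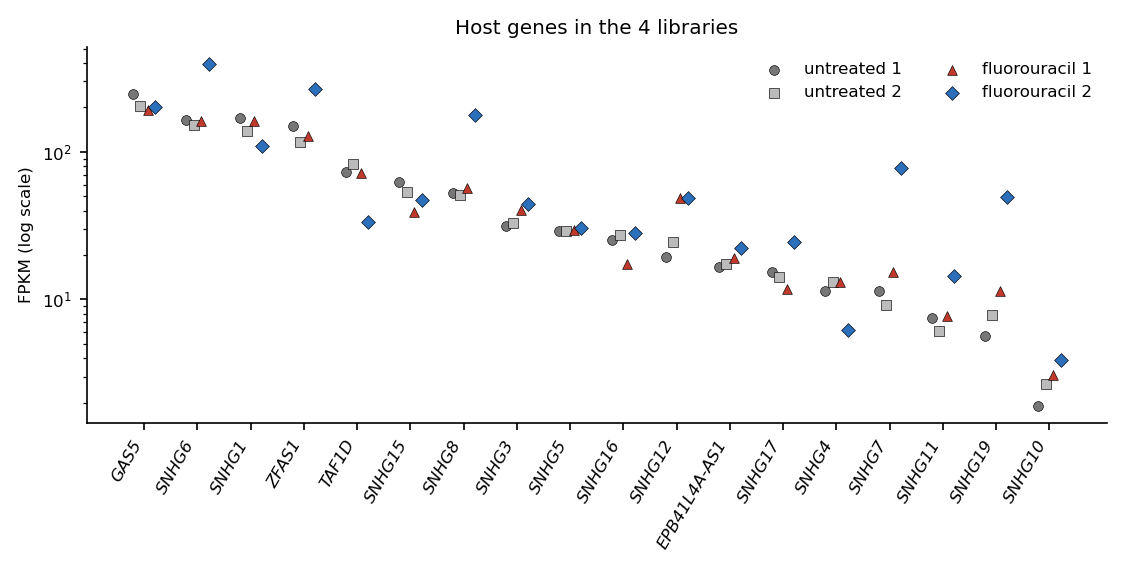
FPKM of the 18 host genes in the 4 libraries on a log scale, ordered by untreated mean; each symbol is 1 library. The SNHG12 symbols of both treated libraries coincide near 49 FPKM, while for SNHG7, SNHG8 and SNHG19 fluorouracil replicate 2 stands apart from the other 3.

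Small nucleolar RNAs transcribed from promoters of their own had almost no signal in 3 libraries. SNORD3A, a copy of U3, which is needed to cleave pre-ribosomal RNA, had 0, 2 and 1 fragments in untreated replicates 1 and 2 and fluorouracil replicate 1, and 17.1 FPKM in fluorouracil replicate 2. SNORD118 (U8) and SNORD13 (U13) had 0 fragments in each of the 3 and were listed at 0 in the fourth. These rows fell below the 1 FPKM threshold and are not members.

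The proteins of the particles were also compared. Core proteins of box C/D and H/ACA particles numbered 9, and none was called in 4 or in 3 libraries, with 0 and 1 at an unadjusted p below 0.05. In fluorouracil replicate 1, 5 lay within the untreated range, 3 below and 1 above, where 36.8% of all rows were below and 38.8% above. Their median log2 change in that library was -0.08. The methyltransferase FBL had 426 and 381 FPKM untreated and 382 and 742 treated, and DKC1, the pseudouridine synthase dyskerin, 90.9 and 94.3 against 82.1 and 95.9. NOP58 had 112 and 117 against 104 and 70.5 FPKM, the only core gene below in both treated libraries, and SNU13 40.6 and 43.5 against 45.2 and 84.0 FPKM, the only one above in both. Over all rows, 19.3% were below and 24.4% above in both treated libraries. RRP9, the U3-specific protein, had 36.4, 32.1 and 25.7 FPKM in the 3 libraries and 41.3 in the fourth. NHP2, NOP10 and GAR1, partners of dyskerin, had treated values within the untreated range in replicate 1 and above it in replicate 2.

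Of 16 assembly and localization factors, 0 were called in either fit and 0 had an unadjusted limma p below 0.05. In fluorouracil replicate 1, 5 lay above, 5 below and 6 within the untreated range, where 38.8% of all rows were above and 36.8% below. Their median log2 change was -0.01 in that library and -0.69 in replicate 2, beside 0.01 and 0.19 for all rows. The assembly factors NAF1, SHQ1, ZNHIT6 and RPAP3, 4 of 16, were below both untreated values in both treated libraries, and ZNHIT3 and WRAP53 above, where 19.3% of all rows were below and 24.4% above. NAF1, which loads dyskerin onto nascent H/ACA RNA, had 5.10 and 5.34 FPKM untreated and 4.25 and 2.70 treated. DBR1, which opens intron lariats and so frees intronic guests, had 9.07 and 7.01 against 10.0 and 6.77 FPKM. The other members were NUFIP1, PIH1D1, RUVBL1, RUVBL2, NOLC1, TCOF1, COIL, TGS1 and PHAX.

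Spliced transcripts of several noncoding hosts, GAS5 among them, are known substrates of nonsense-mediated decay. Of 10 factors of that pathway, 0 were called in either fit, and 0 in 4 libraries and 1 in 3 libraries had an unadjusted limma p below 0.05. UPF1, the central helicase, had 17.5 and 18.1 FPKM untreated and 17.5 and 26.0 treated. SMG8 had 7.60 and 8.02 against 11.03 and 8.35 FPKM, and SMG1, the kinase of UPF1, 18.8 and 21.8 against 22.1 and 5.77. UPF3A, SMG8 and SMG9, 3 of 10, were above both untreated values in both treated libraries, where 24.4% of all rows were. UPF3A was so by a narrow margin, with 34.29 FPKM in fluorouracil replicate 1 against 34.27 in untreated replicate 2. UPF2, UPF3B, SMG5 and SMG6 overlapped like UPF1 and SMG1. The median log2 change of the list was 0.03 in fluorouracil replicate 1 and 0.28 in replicate 2, beside 0.01 and 0.19 for all rows.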

How the data were processed

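RNA of HT29 cells was measured in 2 untreated and 2 fluorouracil libraries. The authors deposited 1 FPKM value per gene symbol and library. Per the submitters' processing notes TopHat2 2.1.0 and Cufflinks 2.2.1 were used, with the builds hg38 and mm10 named without a role. No source used here states the strandedness or annotation. FPKM is scaled by length and library total, so levels depend on what each total counts. Column sums of FPKM were 434628 and 427007 (untreated), 440558 and 764861 (fluorouracil). The 28 rows with a date-like symbol were left out.

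Values were used as log2(FPKM + 0.1), so changes of weakly expressed rows are understated where all values are above 0. For a row at 0 in the treated library the pseudocount sets the size of the log2 change, which can then be overstated. SNORA16B had 4 and 2 fragments untreated and 0 in fluorouracil replicate 1, and a log2 change of -3.99. limma 3.58.1 (R 4.3.3, trended prior variance, two-sided, Benjamini-Hochberg over all rows with a mean of at least 1 FPKM, threshold 0.05) was run on 4 libraries for hosts, and on 3 for small RNAs, without fluorouracil replicate 2. On simulated data with 200 of 12462 rows changed 4-fold it recovered 94.7% with 4 alike libraries, 0% when 1 treated library deviated like fluorouracil replicate 2, and 83.7% with 3 libraries, where 10% of the calls were false. The simulated rows took their spread from all rows and held no fragment counts, so these shares do not describe the small RNA rows. Rows matched RefSeq lengths, 143 of 147 small RNAs by current symbol and 4 by an older one. Fragments per row were FPKM times length times a library total, chosen as the value giving whole numbers in small RNA rows that are not members; 96.6% to 99.1% of such rows below 20 fragments were whole within 0.05. Ratios have exact conditional intervals (Clopper-Pearson, scipy 1.17.1). Hosts were same-strand GENCODE 29 genes around the RefSeq position, the one with the highest untreated FPKM where several overlap; 131 of the 147 small RNAs were matched in GENCODE 29, and the other 16 were placed by position alone.

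Named rows were all hosts, in each class the 5 highest, the 5 largest rises and falls outside the untreated range, those at 0 or above 0 in a treated library, guests of GAS5, SNHG1, ZFAS1 and TAF1D, the rows nearest the threshold and the protein lists, of which 1 gene is not reported here; SNHG12, RABGGTB, NOP56, RPL7A, RPL27A and SNHG5 guests, rows picked for their intervals, SNORD34, SNORD44 and SNORD118 were named after their values were seen. Members, lists and tests were chosen with earlier results of these data known. Alternatives covered the pseudocount, filter, threshold, scaling, replicate block and left-out libraries.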

Additional observations from a re-analysis of the deposited data

Results flagged for a closer look

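In all, 7 rows with a small nucleolar or small Cajal body RNA symbol had a value in fluorouracil replicate 2, the library left out of the small RNA comparison, above both untreated libraries. SNORA73A had 24.2 FPKM there against 12.1 and 9.21 untreated, SNORD17 13.7 against 12.7 and 8.62, and SNORD3A 17.1 against 0 and 0.627. SCARNA17 had 3.62 FPKM against 0 and 0.162, SNORA58 2.85 against 0.912 and 0.865, SCARNA9L 1.06 against 0.206 and 0.196, and SCARNA13 0.875 against 0 and 0. All 7 have at least 207 nt. With such a symbol and a known length, 10 rows were above 0 in that library. The others were SNORA53, SCARNA9 and SCARNA12, which were not above both untreated libraries. FPKM summed to 764861 in that library, against 434628 and 427007 untreated, and no fragment total could be derived for it. Its levels may therefore lie on another scale, and nothing is read from this count. In the 3 other libraries SCARNA13 had 0 fragments, SCARNA17 at most 1, SCARNA9L and SNORD3A at most 2, and SNORA58 at most 3.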

How the results depend on the processing

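The count of 0 called hosts was unchanged with pseudocounts of 1 and 0.01, no filter, libraries scaled on long rows, and without either untreated library; leaving out 1 library gave 0 to 12, the highest without fluorouracil replicate 1. With a replicate block 0 hosts were called (smallest limma adjusted p 0.0622, 339 rows in all). Across 12462 rows the replicate differences of the untreated and the fluorouracil libraries had an r of -0.05. Fluorouracil replicate 2 stood apart from fluorouracil replicate 1, so this r cannot tell whether the libraries were paired by number. The 6 called small RNA rows were 6 with a pseudocount of 1, 2 with 0.01, 0 with no filter and 9 after scaling; settings added after seeing the data gave 8 (filter over 4 libraries) and 24 (other small RNA rows left out). Leaving out an untreated library there leaves no residual degrees of freedom, so no count was made; the cause of these shifts was not tested.

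The box C/D median of -0.33 was -0.28 with a pseudocount of 1, -0.30 with members chosen on the mean of 3 libraries, -0.091 with members chosen in the treated library, -0.30 without rows at 0, -0.12 as summed fragments (added later), and -0.29 to -0.27 against 1 untreated library. The box H/ACA median of -0.12 was 0.0021 with members chosen on 3 libraries, 0.21 with members chosen in the treated library and -0.43 to -0.011 against 1 untreated library. The host median of fluorouracil replicate 2, 0.59, was 0.52 with a pseudocount of 1, 0.47 with members of at least 5 FPKM, 0.72 with members chosen on 3 libraries or in the treated library, 0.37 after scaling, and 0.48 to 0.58 against 1 untreated library; that of replicate 1, 0.10, ran from 0.03 to 0.14. The other settings moved these medians by less than their SD between the untreated references.

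Single hosts changed sign in 6 cases: SNHG5 was at -0.085 after scaling. Leaving out 1 library gave ranges of -0.48 to 0.089 for SNHG1, -0.60 to 0.093 for SNHG16, -0.97 to 0.11 for SNHG4, -0.32 to 0.72 for SNHG17 and -0.052 to 1.02 for ZFAS1. Of 142 small RNA rows, 71 average under 10 fragments, which limits single-row ratios.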

Other observations

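The rows given here were picked after their values were seen. RN7SL1, the RNA of the signal recognition particle, had 1.44 and 2.05 FPKM untreated, 5.91 in fluorouracil replicate 1 and 49.98 in replicate 2. RN7SL2, the other row of that RNA, had 2.16 and 1.82 FPKM untreated, 1.18 in fluorouracil replicate 1, below both, and 31.6 in replicate 2. RN7SK, which holds the elongation factor P-TEFb inactive, had 1.30, 0.205, 5.96 and 10.4 FPKM. RPPH1, the RNA of ribonuclease P, had 0.210, 0.200, 1.86 and 11.1 FPKM. In fluorouracil replicate 1 RN7SK and RPPH1 rested on 28 and 9 fragments, against 6 and 1, and 1 and 1, in the untreated libraries.

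SNHG9, a host row under the threshold, had 1.23 and 0.584 FPKM untreated and 2.12 and 27.4 treated. DANCR, the noncoding host of SNORA26, had 73.0 and 71.6 FPKM untreated and 92.4 and 89.9 treated, while SNORA26 had 9, 12 and 6 fragments in the 3 libraries.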
